A study of Mus musculus with 12 samples.

Results

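The cells described here are 109 Jchain-high cells of mouse spleen, 2.38% (exact 95% interval 1.96 to 2.86%) of the 4579 spleen cells that passed the cell filters and part of 12630 such cells in the whole series. They were chosen by raw counts of unique molecular identifiers (UMIs, each standing for 1 captured RNA molecule): 20 or more of Jchain and 1 or more of Xbp1, in barcodes with 500 or more genes and at most 20% mitochondrial UMIs. The study profiled single cells of 12 mouse samples, 4 each of tracheal allograft, native trachea and spleen, in work on mononuclear phagocytes and fibrosis of transplanted airways. The labels describe the tracheal samples as mesenchymal progenitors and the spleen samples as splenocytes. They state no strain, sex, age, time after transplantation or treatment. The 4 spleen samples lie in 1 pooled matrix whose cells cannot be assigned to a sample, so spleen counts as 1 library. No test between conditions was possible, and all intervals cover counting error only.

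Plasma cells are the antibody-secreting end stage of the B lineage. They arise when the transcription factors Prdm1 (Blimp-1), Irf4 and Xbp1 replace the B cell programme kept by Pax5, and they enlarge the endoplasmic reticulum (ER) in which antibody chains are folded, joined by disulphide bonds and glycosylated. Jchain encodes the joining chain, a small protein linked to polymeric IgM and IgA before they are secreted. In spleen such cells form in extrafollicular foci and after germinal centre reactions.

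The reference throughout was 2280 spleen cells with 3 or more UMIs of Cd79a and Cd79b, which encode the signalling chains of the B cell receptor, and fewer than 20 of Jchain. Of the 109 cells, 108 also met the Cd79 condition. Because Jchain and Xbp1 chose the cells, their values below are descriptions, and every other gene was measured in the same cells. The selection was narrow at its edge. The 3 lowest Jchain counts among the members were 20, 20 and 23, and the 3 highest among cells with Xbp1 that fell short were 19, 19 and 17. A further 26 cells had 10 to 19 Jchain UMIs with Xbp1, and 8 cells had 20 or more Jchain UMIs without Xbp1. These 109 cells held 97.1% of all Jchain UMIs, 81.1% of all immunoglobulin UMIs and 9.22% of all UMIs of the filtered spleen cells.

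The label of plasma cells was only partly borne out. Immunoglobulin genes took 0.357% to 75% of a member's UMIs, with a median of 43.9%. Of the members, 24 stood under 5%, 7 from 5 to 20% and 61 over 40%. A split at 10%, chosen after these values were seen, gave 81 immunoglobulin-rich and 28 immunoglobulin-poor cells. It lies in a gap between 9.77% and 14.3%. This gap was not the widest, as no cell stood between 18.2% and 24.1%, so the split is a working line and not a distinct break. Below the gap the nearest cells stood at 9.77%, 8.63% and 7.66%, and above it at 14.3%, 17.6% and 18.2%. Of the 81, 79 had a UMI of Prdm1 or of Sdc1 (syndecan-1, the plasma cell antigen CD138), whereas 20 of the 28 had neither. Tnfrsf17 (BCMA, a survival receptor of plasma cells) was found in 48 of the 81 cells and in 0 of the 28, which allows a share of cells with a UMI of up to 10.7% (3 counts of the total, a limit on counting and not on expression), although the 28 were the deeper cells. In contrast, 24 of the 28 and 5 of the 81 had 5 or more UMIs of the proliferation genes Mki67 and Top2a. Similarly, 27 of the 28 and 4 of the 81 had 5 or more UMIs of the germinal centre list (genes such as Bcl6, Mef2b and S1pr2). Both are raw counts, which the deeper 28 cells reach more readily. With each cell thinned to 1500 UMIs, Mki67 was found in 78.6% of the 28 and 14.8% of the 81. Mef2b was then found in 46.4% and 4.94%. The 109 cells are therefore called Jchain-high cells here, and the list results are also given for the 81 and the 28.

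**Figure D1:**
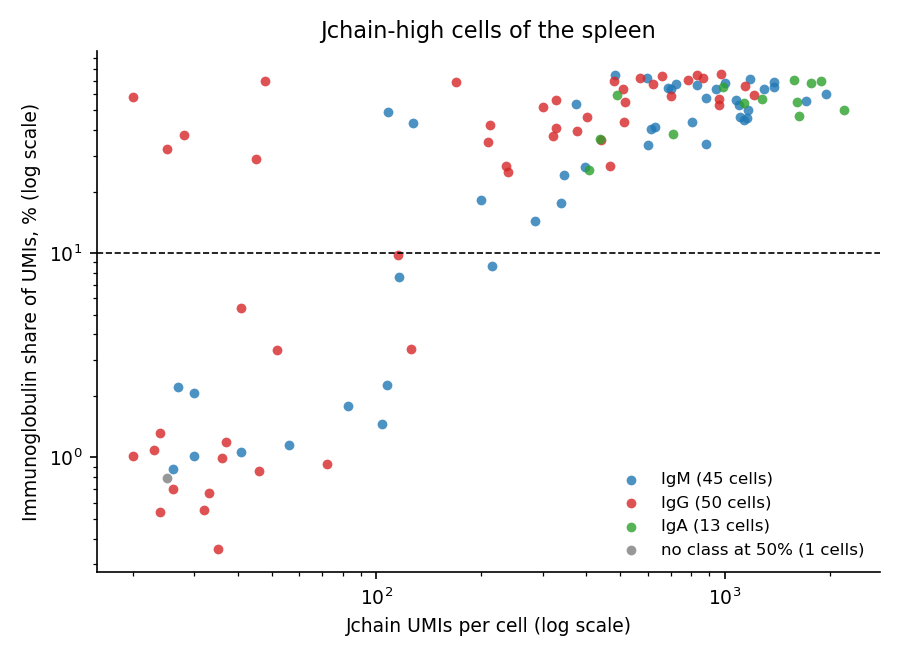
Immunoglobulin share of UMIs (percent, log axis) against Jchain UMIs per cell (log axis) for the 109 Jchain-high cells, coloured by heavy chain class; the dashed line marks the 10% split. The 81 immunoglobulin-rich cells lie at 14.3% or above, and the 28 others lie between 0.357% and 9.77%, with Jchain counts of 20 to 214.

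Jchain itself ranged from 20 to 2196 UMIs per cell with a median of 441. In the 81 cells the median was 660 (lowest 20, highest 2196), and in the 28 it was 36.5 (lowest 20, highest 214). Both ranges overlap from 20 to 214, but the middle of the immunoglobulin-rich cells lies far above every immunoglobulin-poor cell. Xbp1, the ER stress transcription factor of the selection rule, was counted 3 to 67 times in the 81 cells (median 22) and 1 to 38 times in the 28 (median 4). In reference cells Xbp1 ranged from 0 to 13 UMIs. Of the members, 10 met the rule with only 1 or 2 Xbp1 UMIs. Prdm1 was sparse even in the 81, with a median of 1 UMI and a highest of 11, and 54 of these cells had any. In the 28 it was found in 7 cells, and in 40 of the 2280 reference cells. Jchain lies at chr5:88519809-88527891, Xbp1 at chr11:5520659-5525893 and Prdm1 at chr10:44437177-44528501 (GENCODE M21, GRCm38, whole gene spans).

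Some of these molecules are present in cells that do not make them. Spleen T cells were taken as non-members with 2 or more UMIs of Cd3d and Cd3e and no UMI of Cd79a or Cd79b. In these 901 cells (median depth 4240 UMIs) Igkc was found in 71.8% and Ighm in 65.0%, with medians of 1 UMI each. Leaving out cells with Cd79 UMIs could lower such shares, which was not tested. Jchain was found in 10.5% of T cells with at most 2 UMIs, well under the 20 required of members. Sdc1 was found in 0.777% of T cells and Tnfrsf17 in 0 of 901, which by the same limit allows a share with a UMI of up to 0.333%. Prdm1, which T cells can express, was found in 4.00%.

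Jchain-high cells were deep libraries. Their total UMIs ran from 5603 to 80955 with a median of 23132, against a median of 4758 (lowest 800, highest 78015) in the reference. The 81 cells had a median of 21085 UMIs and 2486 genes. The 28 had a median of 28246 UMIs but 4816.5 genes, and the reference 1701 genes. The immunoglobulin-rich cells showed fewer genes by median than the deeper immunoglobulin-poor cells. Once immunoglobulin and Jchain UMIs were set aside, the 81 cells kept a median of 7934 UMIs and the 28 a median of 27990.5. A rule on raw counts selects deep cells more readily, and the part this played in the depth difference was not tested. Mitochondrial genes took a median of 2.11% of UMIs in the 81 cells, 5.38% in the 28 and 7.15% in the reference.

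**Figure D2:**
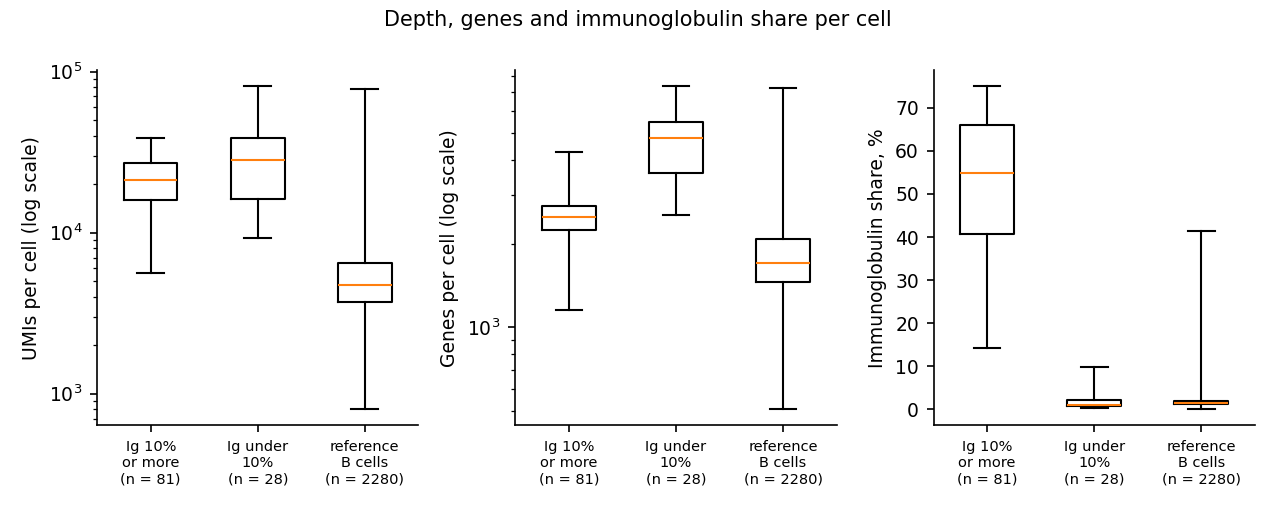
UMIs per cell and genes per cell (log axes) and immunoglobulin share (percent) for the 81 and 28 Jchain-high cells and the 2280 reference B cells; boxes give quartiles and median, whiskers the lowest and highest cell. Median depth was 21085, 28246 and 4758 UMIs, and median immunoglobulin share 54.9%, 1.11% and 1.55%.

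Summed over cells, immunoglobulin genes made up 37.2% of all UMIs of the 109 cells, 54.4% in the 81 and 1.90% in the 28. The reference stood at 1.53% and T cells at 0.0833%. Jchain added 2.42% in the 109 cells, 3.50% in the 81, 0.190% in the 28 and 0.00933% in the reference. Nearly all of the immunoglobulin signal came from constant regions, with 36.9% of UMIs against 0.319% from variable gene segments. The reads begin at the 3' end of the transcript, and the cause of this difference was not tested. Only 2 of the 2280 reference cells reached an immunoglobulin share of 10%.

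The antibody class of each cell was taken as the class holding over 50% of its heavy constant UMIs. IgM (Ighm) was the class of 45 cells (41.3%), IgG (Ighg1, Ighg2b, Ighg2c or Ighg3) of 50 (45.9%) and IgA (Igha) of 13 (11.9%), and 1 cell had no majority. IgD and IgE were the class of 0 cells. Among the 81, IgM and IgG each accounted for 34 cells (42.0%) and IgA for 13 (16%). Among the 28, 11 were IgM, 16 were IgG and 0 were IgA. In the reference, Ighm made up 76.4% and Ighd 15.8% of heavy constant UMIs. These genes form 1 cluster on chromosome 12, from Igha at chr12:113254830-113260236 to Ighm at chr12:113418558-113422730, and class switching joins the variable region to 1 of them.

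The class of a single immunoglobulin-rich cell was nearly pure. In 80 of the 81 cells 95% or more of the heavy constant UMIs belonged to 1 class, the lowest value was 94.0% and the median 99.9%. Heavy constant UMIs numbered 429 to 7729 per cell (median 2690) in the 81. In the 28 they numbered only 8 to 776 (median 92.5), so their classes rest on far fewer molecules, against a median of 20 in the reference. Among the 34 IgG cells of the 81, the leading gene was Ighg2c in 19, Ighg2b in 9, Ighg1 in 3 and Ighg3 in 3. Among the 16 IgG cells of the 28, it was Ighg2b in 8, Ighg1 in 5, Ighg2c in 3 and Ighg3 in 0. Of the Ighg1 UMIs of the 81 cells, 53.0% came from 1 cell, so summed Ighg1 values describe mainly that cell.

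Light chains were almost all kappa. Igkc led in 106 of the 109 cells, with a median of 6597 UMIs per cell in the 81, 215 in the 28 and 40 in the reference. Lambda led in 3 cells, all IgM. Of these, 2 had 17506 and 11720 UMIs of Iglc1, and the remaining one, an immunoglobulin-poor cell, was nearly even at 349 lambda and 347 kappa UMIs. In 75 of the 81 cells 95% or more of the light constant UMIs were of 1 type. The least pure cell, an IgG cell at 53.4%, held 3599 kappa and 3147 lambda UMIs.

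**Figure D3:**
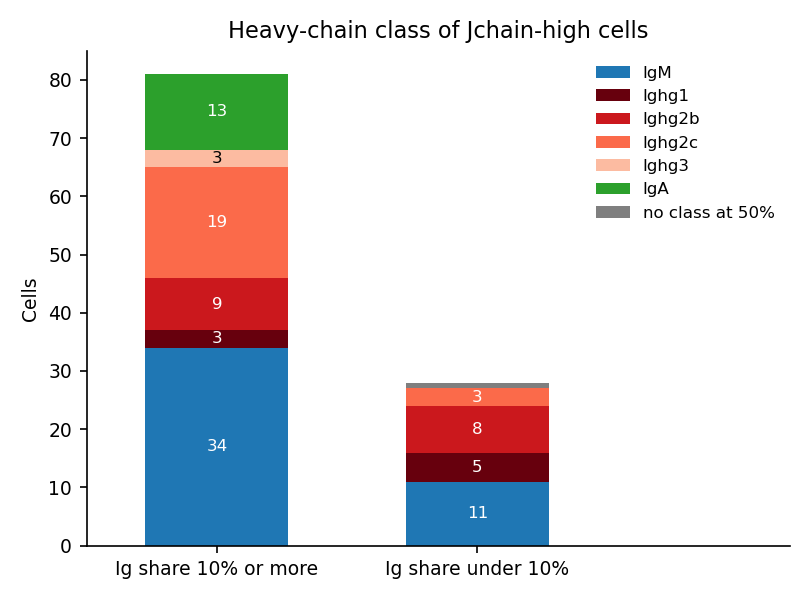
Number of Jchain-high cells (stacked bars) by heavy chain class, with IgG given by its leading gene, in the cells with an immunoglobulin share of 10% or more and under 10%. IgA is the class of 13 of the 81 immunoglobulin-rich cells and of 0 of the 28 others.

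The rule required Jchain in every member, so only its level within the classes is described. Secreted IgG, unlike polymeric IgM and IgA, is not joined by the J chain. In the 81 cells Jchain ran from 108 to 1948 UMIs in IgM cells (median 818.5), from 20 to 1209 in IgG cells (median 455) and from 408 to 2196 in IgA cells (median 1274). The 3 ranges overlap. As a share of all UMIs the medians were 4.22% in IgM, 2.12% in IgG and 5.49% in IgA cells. Per 100 heavy constant UMIs they were 32.5, 18.7 and 52.5. The order was the same on all 3 scales, which share the same Jchain counts and so are not separate support. The immunoglobulin share hardly differed, with medians of 53.5%, 55.5% and 55.2%. Within IgG, the 3 Ighg3 cells had 25, 28 and 45 Jchain UMIs. Ighg2b cells ran from 20 to 1139 (median 238), Ighg2c cells from 211 to 963 (median 514) and Ighg1 cells from 236 to 1209 (median 480), so the lowest IgG cell was an Ighg2b cell. All 3 Ighg3 cells lay close to the threshold of 20, which bounds these values from below.

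Other genes also varied with class in the 81 cells, in contrasts chosen after their values were seen. Slpi, a secreted protease inhibitor, had 0 to 312 UMIs in IgM cells (median 5), 0 to 1440 in IgG cells (median 132.5) and 0 to 187 in IgA cells (median 59). The ranges overlap, but 31 of 34 IgG cells and 25 of 34 IgM cells had any. Relative to all non-immunoglobulin UMIs of the class, the summed Slpi count stood at 3620 counts per 1000000 (CPM) in IgM, 31015 in IgG and 9719 in IgA cells, 8.57-fold higher in IgG than IgM (counting interval 8.07 to 9.10). Within IgG, the 3 Ighg3 cells had 0, 0 and 3 Slpi UMIs. Tnfrsf17 went the other way. Its range was 0 to 11 UMIs in IgM cells (median 2), 0 to 5 in IgG cells (median 0) and 0 to 19 in IgA cells (median 3), and it was found in 27 of 34, 11 of 34 and 10 of 13 cells. The summed level was 3.28-fold higher in IgM than IgG (2.11 to 5.47) and 7.71-fold higher in IgA than IgG (4.80 to 13.1). As background, 14.2% of 6103 genes differed by 2-fold or more between IgM and IgG cells and 20.3% of 4640 between IgG and IgA cells, with no replicate to test any of them. Xbp1 had medians of 18, 26.5 and 25 UMIs in IgM, IgG and IgA cells.

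**Figure D4:**
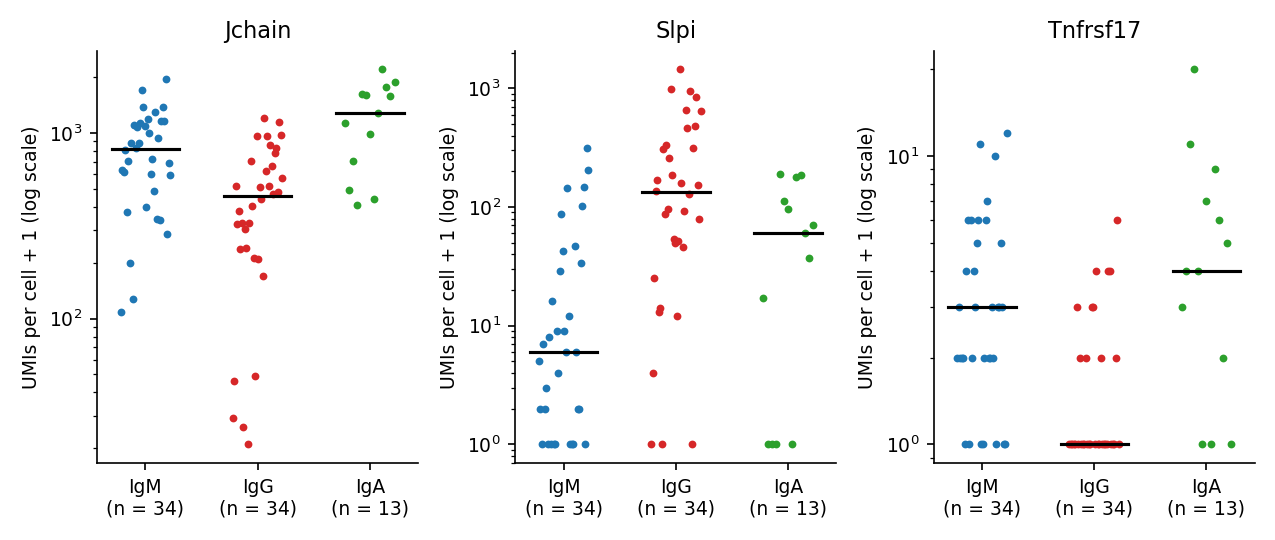
Jchain, Slpi and Tnfrsf17 UMIs per cell plus 1 (log axes) in the 81 immunoglobulin-rich cells by heavy chain class; points are cells and bars medians. Jchain medians are 818.5, 455 and 1274 in IgM, IgG and IgA cells, while Slpi is highest in IgG and Tnfrsf17 lowest in IgG by median.

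For gene expression, UMIs were summed over the cells of a group and divided by the group's UMIs other than immunoglobulin and Jchain, so that the immunoglobulin load did not lower every other gene by construction. A ratio of these levels (in CPM), with 0.5 UMIs added to each sum, is given as a log2 ratio to the reference, and genes with 10 or more UMIs count as measured. Higher and lower mean a ratio of 2-fold or more. Of 12188 genes measured for the 109 cells, 13.4% were higher and 18% lower. For the 81 cells 15.1% of 12106 genes were higher and 21.1% lower (36.3% in all), and for the 28 cells 14.1% of 12030 were higher and 22.3% lower (36.4% in all). With each cell thinned to 1500 UMIs the balance for the 28 turned, to 3485 higher and 1243 lower of 9875 genes, with the median gene at 0.55. The median gene stood at -0.02, -0.18 and -0.11. Scaled to all UMIs instead, the median gene moved to -0.73 for the 109 and -1.41 for the 81, and the split of 1638 higher and 2188 lower genes for the 109 became 677 and 4679. That of the 81 went from 1831 higher and 2558 lower to 573 and 7984. The direction of each list median below is the same under both scalings unless the other value is given. With 1 library there is no replicate check of any of them.

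The regulators of the plasma cell programme were higher in the 81 cells. Of 12 measured, Xbp1 of the selection rule among them, 10 were higher and 0 lower, and the list median was 3.83 (log2). For the 109 cells 9 were higher and 0 lower (median 2.94), and for the 28 cells 6 were higher and 2 lower (median 0.91). Fam46c, which stabilises mRNA of secreted proteins, reached 680 CPM against 8.37 in the reference (log2 ratio 6.34) and was found in 80 of 81 cells. Prdm1 stood at 188 against 4.22 CPM (log2 ratio 5.47). Irf4 stood at 219 against 41.0 (log2 ratio 2.42). The transcription factor Bhlha15 (Mist1), which organises secretory cells, had 51 UMIs in the 81 cells and 3 in all 2280 reference cells.

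Plasma cell surface and survival genes were mixed. Of 29 measured in the 81 cells, 14 were higher and 3 lower. The list median was 0.74 (log2) but turned to -0.49 under scaling to all UMIs, with 10 higher and 11 lower. For the 109 cells 13 were higher and 6 lower (median 0.21, and -0.50 under that scaling), and for the 28 cells 3 of 27 were higher and 15 lower. Tnfrsf17 had 176 UMIs in the 81 cells and 0 in the reference. With a floor of 3 counts set for the reference group it was 1085-fold higher, and its counting interval began at 873-fold. Sdc1 reached 389 against 3.11 CPM and was found in 72 of the 81 cells. Also higher in the 81 were the adhesion molecule Epcam (340 against 5.41 CPM), the surface protein Ly6c2 (log2 ratio 5.94) and Cd28 (4.49). Ccr10, a chemokine receptor of IgA plasma cells, was found in 16 of the 81 cells, 2 of the 28 and 1 reference cell. The lymph node egress receptor S1pr1 was lower (-2.92), and so was Cd38 (-2.75).

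Many B cell genes were lower in the 81 cells and fewer of the B cell regulators in the 28. Among 15 B cell regulators, 0 were higher and 10 lower in the 81 cells (median log2 ratio -2.46), and 1 was higher and 6 lower in the 28 (-0.69). The 109 cells together had 0 higher and 8 lower (-1.27). Pax5, the factor that maintains B cell identity, fell to 13.7 CPM in the 81 cells from 352 in the reference and was found in 7 of 81 cells and, at greater depth, in 23 of the 28. With each cell thinned to 1500 UMIs it was found in 0 of the 81, 3 of the 28 (10.7%) and 41.4% of the reference. Ebf1 (-3.68), Bcl11a (-4.33), Spib (-4.28) and Id3 (-4.24) were also lower in the 81. Of 26 genes of the B cell surface and receptor signalling, 0 were higher in any of the 3 groupings. In the 81 cells 19 were lower (median -1.96), in the 28 also 19 (-1.42) and in the 109 cells 20 (-1.69). Fcer2a (CD23, a low-affinity IgE receptor) had 1 UMI in the 81 cells, and Cd22 stood at -4.50. The receptor chains Cd79a (-0.67) and Cd79b (-1.09) were nearer to the reference. Both genes chose the reference cells but not the members, so their ratios are descriptions only.

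Genes of MHC class II presentation, by which B cells show antigen to T cells, were lower in 7 of 10 cases in the 81 cells (median -1.45), 6 of 10 in the 109 (-1.08) and 3 of 10 in the 28 (-0.81), and 0 were higher. Of all genes, 21.1%, 18% and 22.3% were lower in the same order, so the count in the 28 lay near its background. Ciita, the activator of the class II genes, stood at -4.22 in the 81, and the peptide-loading gene H2-Oa at 21.9 against 239 CPM. H2-Aa, a class II chain, was at 1006 against 3229 CPM. Cd74, the invariant chain, stood at 10295 CPM in the 81 cells and 10815 in the reference, a log2 ratio of -0.07.

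Secretory pathway genes were the broadest group higher in the immunoglobulin-rich cells. Of 138 measured, 120 were higher and 1 lower in the 81 (list median 2.32 on the log2 scale). In the 109 cells 105 were higher and 1 lower (median 1.56), and in the 28 cells 24 of 136 were higher and 8 lower (median 0.50). Under scaling to all UMIs the counts were 75 higher and 5 lower in the 81 cells, 66 and 5 in the 109, and 23 and 8 in the 28. Per cell, the summed level ran from 35058 to 184265 CPM in the 81 cells (median 94739). In the 28 it ran from 12450 to 52238 (median 14494.5), and in the reference from 5711 to 82471 (median 11577). The 28 cells all lay above the reference median, within the reference range, and the lowest of the immunoglobulin-rich cells overlaps with both.

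Entry into the ER and removal of the signal peptide are carried out by the translocon and signal peptidase. In the 81 cells 21 of 25 of these genes were higher and 0 lower (median 2.46), compared with 2 higher of 25 in the 28 (median 0.51). Ssr4, a subunit of the translocon-associated complex, reached 5204 CPM against 237 (log2 ratio 4.46). Tram2 (4.48), Spcs3 (4.03) and the signal peptidase catalytic subunit Sec11c (3.73) were of similar size. Of 22 ER chaperones, which fold the new chains, 20 were higher and 1 lower in the 81 (median 3.33), and 5 were higher and 0 lower in the 28 (median 0.67). Hsp90b1 (GRP94) was at 8362 against 335 CPM, a log2 ratio of 4.64. Hspa5 (BiP), which binds unassembled heavy chains, was at 3056 against 313 (log2 ratio 3.29), and Mzb1, a chaperone helper of B and plasma cells, at 10799 against 751 (3.85). The steepest were Fkbp11 (5.97) and Creld2 (5.79), and the lectin chaperone Canx was the most modest of those named, at 1.11.

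Disulphide formation, glycosylation, degradation and export followed the same direction in the 81 cells. For disulphide formation 14 of 18 genes were higher and 0 lower (median 2.34), led by Selenom (7.14), the peroxiredoxin Prdx4 (4.95) and the disulphide isomerase Txndc5 (4.95). For N-glycosylation, 19 of 23 were higher and 0 lower (median 1.76), among them the oligosaccharyltransferase subunits Ddost (3.35) and Rpn1 (2.94). ER-associated degradation, which removes misfolded chains, had 16 of 18 higher and 0 lower (median 2.94), with Derl3 at 730 against 10.6 CPM (6.10) and Edem1 at 4.97. Transport from ER to Golgi had 30 of 32 higher and 0 lower (median 2.15), including the cargo adaptor Sec24d (4.91) and the cargo receptor Lman1 (4.04). Kdelr3, a receptor that returns ER proteins, had 21 UMIs in 15 of the 81 cells and 0 in the reference. In the 28 cells these 4 lists had 6 of 17, 2 of 23, 3 of 18 and 6 of 31 genes higher, against the background of 14.1%. Scaled to all UMIs, the 81 cells still had 14 translocation, 17 chaperone, 10 disulphide, 7 glycosylation, 12 degradation and 15 transport genes higher.

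Stress, amino acid and respiration genes were followed next. Among 16 stress sensors and translation control genes 11 were higher and 1 lower in the 81 (median 1.28), but only 4 higher and 2 lower under scaling to all UMIs (median 0.05). Ern1 (IRE1), the sensor that splices Xbp1 mRNA, had a log2 ratio of 3.89 and was found in 27 of the 81 cells. In the 28 cells 1 of 14 was higher and 6 lower. Of 17 amino acid transport and synthesis genes 9 were higher and 1 lower in the 81 (median 1.19, and -0.04 with all UMIs), including Pycr1 (6.81), a proline synthesis enzyme, and Slc3a2 (1042 against 98.9 CPM), a transporter subunit. In the 28 cells 9 of 16 were higher and 0 lower (median 1.07). Of 18 mitochondrial respiration genes 3 were higher in the 81 (median 0.50, and -0.73 with all UMIs) and 4 in the 28 (median 0.77), and 0 were lower in either on the non-immunoglobulin scale. As background, 15.1% of all genes were higher in the 81 and 14.1% in the 28, so the count in the 81 lay near that share.

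**Figure D5:**
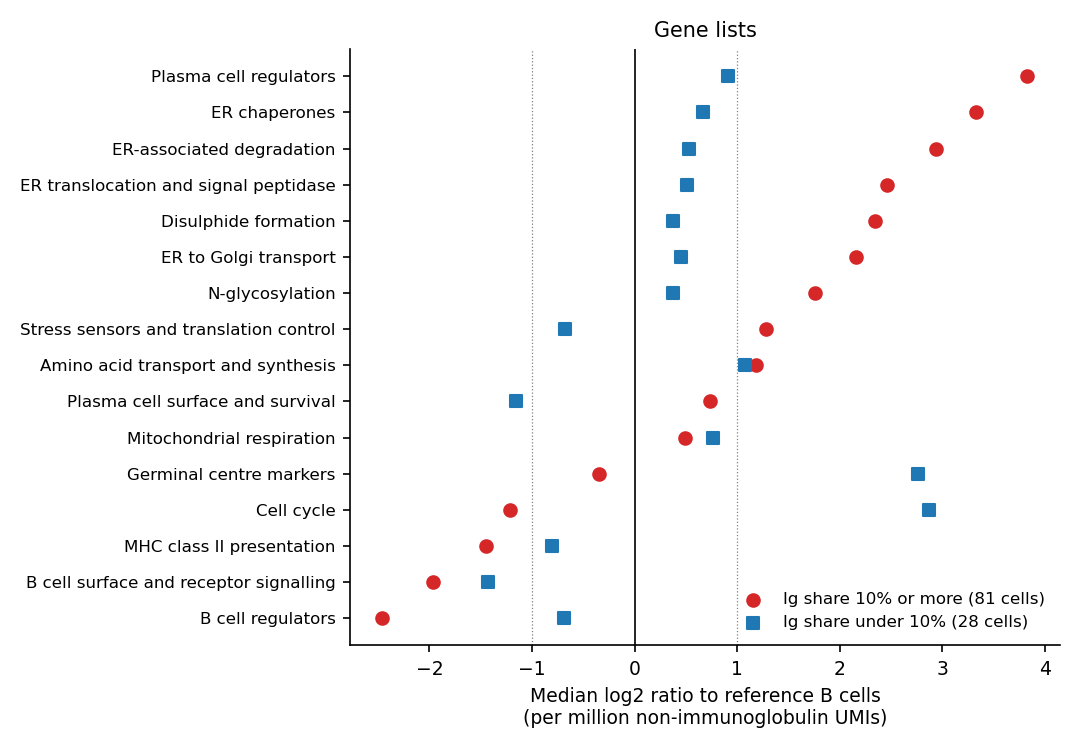
Median log2 ratio to the 2280 reference B cells of each gene list, scaled to non-immunoglobulin UMIs, for the 81 cells (circles) and the 28 cells (squares); dotted lines mark 2-fold. The secretory lists have medians from 1.76 to 3.33 in the 81 cells, and the cell cycle list one of 2.87 in the 28 cells and -1.21 in the 81.

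Promoter sequence of the gene lists was also examined for the motifs of the ER stress response. The search read sequence only and used no count from these cells. Its shares therefore describe the gene lists and are no test of the expression values above. The ER stress response element, bound by the factors ATF6 and NF-Y, consists of CCAAT and CCACG, 9 bases of any kind apart. It was searched on both strands in windows from 250 bases before to 50 bases after each start (RefSeq, GRCm38.p6). Of 115 secretory genes matched to the table, 10 (8.70%) held it, compared with 37 of 27025 genes overall (0.137%). The ER chaperone list held it in 6 of 18 genes (33.3%), and the lists of plasma cell regulators, B cell genes and cell cycle genes in 0. The matches are printed 5' to 3' in the orientation of the motif, with its fixed bases in capitals. The search was exact, so they can differ only in the spacer.
Calr: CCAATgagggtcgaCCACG
Canx: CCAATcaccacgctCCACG
Creld2: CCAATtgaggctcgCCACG
Derl3: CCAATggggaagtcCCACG
Dnajc3: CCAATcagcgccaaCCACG
Ero1b: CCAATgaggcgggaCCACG
Hsp90b1, far match: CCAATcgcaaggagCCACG
Hsp90b1, near match: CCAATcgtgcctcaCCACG
Hspa5: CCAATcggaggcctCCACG
Pdia6: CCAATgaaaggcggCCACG
Syvn1: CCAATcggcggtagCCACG

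These matches lie from 44 (Syvn1) to 212 (Hsp90b1) bases before the start, for example at chr2:34772025-34772043 for Hspa5, chr15:88819520-88819538 for Creld2 and chr10:75893242-75893260 for Derl3. In the 81 cells the log2 ratios of these genes ran from 1.11 (Canx), 1.62 (Syvn1) and 1.84 (Ero1b, named Ero1lb in the counts) through 2.44 (Calr), 3.29 (Hspa5), 3.53 (Pdia6), 4.24 (Dnajc3) and 4.64 (Hsp90b1) to 5.79 (Creld2) and 6.10 (Derl3). A match therefore went with small as well as large ratios. The 250 bases before the start of the abundant chaperones Hspa5 (chr2:34771840-34772089, plus strand) and Hsp90b1 (chr10:86705445-86705694, minus strand) show the motif in its setting, in the gene's orientation and with the whole match in capitals. Hsp90b1 carries 2 matches, the nearer of them on the opposite strand.
Hspa5: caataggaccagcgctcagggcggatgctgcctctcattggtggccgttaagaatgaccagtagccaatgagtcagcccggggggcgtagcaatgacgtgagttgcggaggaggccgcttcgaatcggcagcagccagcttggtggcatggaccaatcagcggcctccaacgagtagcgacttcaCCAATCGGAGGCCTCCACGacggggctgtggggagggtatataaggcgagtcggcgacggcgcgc
Hsp90b1: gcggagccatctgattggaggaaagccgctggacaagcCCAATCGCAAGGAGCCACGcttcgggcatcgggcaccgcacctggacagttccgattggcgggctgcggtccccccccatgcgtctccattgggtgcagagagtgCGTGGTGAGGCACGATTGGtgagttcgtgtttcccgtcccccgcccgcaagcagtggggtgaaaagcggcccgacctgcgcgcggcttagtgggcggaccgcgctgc

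The XBP1-type element TGACGTGG was in 8 of the 115 secretory genes (6.96%) and in 0.714% of all genes. The secretory carriers were Copb2, Kdelr3, Sec23a, Sec24d, Txndc11, Txndc5, Ube2j1 and Vcp. The element was also in 1 of 11 matched plasma cell regulators (9.09%), and in 0 of the B cell and cell cycle genes. The immunoglobulin octamer ATGCAAAT was in 1 secretory gene (0.870%), in 1 of 15 matched genes of B cell surface and receptor signalling (6.67%) and in 1.97% of all genes. A match to these letters describes the window and not binding.

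Outside the lists, the named genes with the highest ratios in the 81 cells included several that are not usually grouped with secretion. Slpi reached 15549 CPM against 46.1 in the reference (log2 ratio 8.40) and was found in 65 of the 81 cells. Prg2, known as the major basic protein of eosinophils, was found in 44 of the 81 cells and in 10 reference cells (log2 ratio 8.66). Further down the ranking came Chst1, a carbohydrate sulphotransferase, at 6.51, and the receptor gene Prlr. Chst1 was not particular to the 81, where 48 cells had it. It was also higher in the 28 (log2 ratio 4.82), found in 17 of them. Ccr6, a chemokine receptor of B cells, had 0 UMIs in the 81 cells and 1044 in the reference. With the floor of 3 counts over the 81 cells, it was 18.8-fold lower, and its counting interval began at 15.3-fold.

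Proliferation and germinal centre genes were higher in the 28 immunoglobulin-poor cells. All 24 measured cell cycle genes were higher (median log2 ratio 2.87). In the 81 cells 0 were higher and 15 lower (median -1.21), while 23 were higher in the 109 cells as a whole. With each cell weighted equally, 1 was higher and 9 lower in the 81 (median -0.54), and with each cell thinned to 1500 UMIs 3 were higher and 4 lower of 23 (median -0.27). Mki67 stood at 2.93 in the 28, found in 26 cells, and at 0.19 in the 81. The germinal centre list had 6 of 6 genes higher in the 28 (median 2.76) and 0 of 6 in the 81, where 2 were lower (median -0.35). For the 109 cells 5 of 6 were higher (median 1.97). That median became 5.69 when the reference was limited to cells with 0 Jchain UMIs. Of the 2280 reference cells, 401 had 1 or more, so the size of this list's ratios depends on which reference cells are used. Mef2b, a transcription factor of germinal centre B cells, was found in 28 of 28 cells (456 against 36.5 CPM), and in 46.4% of them when thinned. The confinement receptor S1pr2 stood at 2.89 and Rgs13 at 2.63.

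The plasma cell regulators of the 28 cells were unevenly spread. Their summed log2 ratios were 1.94 for Xbp1, which the rule used, 2.91 for Prdm1, 2.83 for Fam46c and 2.81 for Eaf2. The 4 cells with an immunoglobulin share of 5% or more held 16 of the 26 Prdm1 UMIs, 27 of 49 of Fam46c and 65 of 174 of Xbp1, but 19 of 186 of Eaf2. Of the other 24 cells, 3 had any Prdm1. Klf2 (-4.92), the complement receptor Cr2 (-5.95), the homing receptor Ccr7 (-4.24) and the survival gene Bcl2 (-4.51) were low. Prg2 and Tnfrsf17 had 0 UMIs in these cells. When each cell was thinned to 1500 UMIs, Xbp1 was found in 93.8% of the 81 cells, 17.9% of the 28 and 6.66% of 2266 reference cells. Mki67 was found in 14.8%, 78.6% and 4.28% in the same order, and Ms4a1 (CD20) in 75% of the 28 and 84.4% of the reference. Xbp1 was used by the rule, so its shares are given as a description only. Directly compared, 19.6% of 8526 genes were higher in the 81 than in the 28, and 21.7% were lower.

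Markers of other cell types were followed in each cell, since 2 cells in 1 droplet would give mixed counts. Of the 109 cells, 14 had 2 or more T cell marker UMIs, 17 had 5 or more myeloid marker UMIs and 27 had either, 18 of them among the 81. Myeloid marker UMIs per cell had a median of 2 in both groups, a highest value of 208 in the 81 and of 1736 in the 28, and reached 6669 in the reference. The neutrophil genes Retnlg, S100a8 and S100a9 of the 28 came from 1 cell to 99.6%, 98.9% and 97.5%. Of the 7 erythroid markers measured, all were lower in the 109 cells. Of the 3 platelet and megakaryocyte markers measured, all were higher (median 2.38), with 17 of the 21 UMIs of that list in 1 of the 81 cells and 0 in the 28. Without the 27 cells 82 remained, and the secretory and plasma cell lists stayed within 1.5 times of their counts. The cell cycle list then had 20 genes higher and the germinal centre list 5, compared with 23 and 5 in all 109 cells.

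In the trachea the same rule found 1 cell of 4156 in the native samples and 3 of 3895 in the allografts. The native cell was IgM kappa with 608 Jchain UMIs and an immunoglobulin share of 32.6%. The allograft cells were 1 Ighg2b lambda cell (230 Jchain UMIs, 17.7%) and 2 IgA kappa cells (299 and 1587 Jchain UMIs, 37.2% and 67.3%). Their classes are values of single cells, and 4 cells do not allow a comparison of tissues. The spleen matrix shared 7 barcodes with that of native trachea and 4 with that of the allografts, and 0 of the 109 cells were among them.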

How the data were processed

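Single-cell RNA was captured with 10x Genomics 3' v3 chemistry, and the authors deposited filtered gene-by-barcode matrices of UMI counts made with Cell Ranger 3.1.0, per the file headers, on mm10, per the submitters' processing notes. Each matrix pools the 4 samples of a source, so no sample replicates could be recovered. Barcodes with 500 or more genes and at most 20% mitochondrial UMIs were kept: 4579 of 4856 in spleen (28318436 UMIs, median 4433 per cell), 4156 in native trachea and 3895 in allograft. Whether the authors removed doublets is not given in the sources used here, and no doublet caller was run. Cells with 2 or more T cell or 5 or more myeloid marker UMIs were left out as an alternative.

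Counts were summed per group, 0.5 was added, and ratios used the total without 392 immunoglobulin genes (by symbol) and Jchain. Intervals are exact binomial at 95%, conditional on the summed count for ratios, and Clopper-Pearson for shares. The limit beside a count of 0 cells is 3 counts of the total. They cover counting error only. Of 31053 gene IDs, 31011 were found in GENCODE M21. Promoters came from RefSeq (GRCm38.p6). Python 3.11.15, numpy 2.4.6, scipy 1.17.1, pandas 2.3.3 and matplotlib 3.10.9 were used, and the ratio code was tested on simulated data.

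The cells, gene lists, alternatives and markers were chosen with earlier results of these data known. From each list the 4 genes with the largest ratios could be named, as could the 12 highest and 12 lowest genes overall with 50 or more CPM, 30 or more UMIs and a UMI in 20% of cells. The markers, the constant genes and the 3 most frequent variable genes of each chain could also be named. Other genes in the text (among them Hspa5, Mzb1, Calr, Cd74, Cd79a, Irf4 and Mki67) were named for their known role or promoter match after values were seen. Genes whose reads could be shared with close copies, such as the Ighg and Iglc genes, Ly6c2 and H2 genes, are less certain. All comparisons are descriptions, since 1 library per source allows no test. A few genes of the lists are not reported here by name.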

Additional observations from a re-analysis of the deposited data

How the results depend on the processing

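No paired analysis was possible because the files pool the 4 samples of a source and carry no replicate, and for the same reason no replicate could be left out. Across 1101 alternative values 968 stayed within the set limits and 128 moved. The other 5 were list medians of 1 or more in size that changed sign. The median immunoglobulin share of 43.9% became 35.8% with 10 or more Jchain UMIs. The summed share of 37.2% became 32.7% with 10 or more and 45.5% with 50 or more Jchain UMIs, 42.2% with 3 or more Xbp1 UMIs, 37.1% without the cell filters and 36.9% with constant genes only. With 50 or more Jchain UMIs, 12 cell cycle genes were higher. Scaling to all UMIs gave 677 higher and 4679 lower genes, with 66 secretory genes higher, and a minimum of 50 summed UMIs gave 1064 and 1454. The split at 10%, chosen after the data were seen, moved more values than the other settings did, although most stayed within the limits. At 10% or more the median was 2486 genes and an immunoglobulin share of 54.9% (54.4% summed), and 0 cell cycle genes were higher. Under 10% there were 28 cells, with medians of 28246 UMIs, 4816.5 genes and a 1.11% immunoglobulin share (1.90% summed), 57.1% IgG and 0% IgA, 24 secretory and 3 plasma cell surface genes higher. Signs turned for the NK marker median (-1.59, and 0.0121 when thinned) and for the platelet marker median (2.38, and -1.30 without the cells carrying T or myeloid markers, and -1.01 under 10%). They also turned for the cell cycle and germinal centre medians (-1.21 and -0.35 at 10% or more). Some smaller list medians turned as well and are not among these 5. For example, under 10% the plasma cell surface median went from 0.21 to -1.16 and the stress sensor median from 0.73 to -0.68. Scaled to all UMIs, the mitochondrial respiration median of the 109 cells went from 0.68 to -0.03. The cause was not tested. Thinning kept all 109 cells and 2266 reference cells, and the other scaling settings kept the same cells. Stricter Jchain, Xbp1 or cell filter limits left fewer cells, as did leaving out cells with T or myeloid markers. The limit of 10 or more Jchain UMIs added 26 cells, and dropping the cell filters also added cells. Promoter motif shares had no alternative. With 109 cells of 1 pooled library, precision is limited by cell number, and genes with few UMIs rest on few cells.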

Other observations

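Variable gene segments could be read in part of the 81 immunoglobulin-rich cells, although the reads start at the 3' end. These cells had a median of 6 heavy variable UMIs (lowest 0, highest 50) and 19 kappa variable UMIs (lowest 0, highest 326). With 10 or more such UMIs and over 50% of them from 1 gene, 23 cells had a dominant heavy variable gene and 61 a dominant kappa variable gene. The 23 cells used 20 heavy genes, of which Ighv1-12, Ighv7-3 and Ighv9-3 were each dominant in 2 cells. The 61 cells used 29 kappa genes, most often Igkv4-74 in 7 cells and Igkv17-121 in 6, followed by Igkv12-46, Igkv4-61, Igkv6-15 and Igkv9-120 in 4 each. Both chains were readable in 20 cells, which held 19 distinct pairs. The single pair found in 2 cells was Ighv7-3 with Igkv16-104, and both cells were IgG. Since reads of similar variable genes can be assigned to one another, these are names of best-supported segments, and shared names do not show shared descent.

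Some class differences rested on a single cell. Of the Crip1 UMIs of the 13 IgA cells, 51.3% came from 1 cell, and the medians were 2, 4 and 1 UMIs in IgM, IgG and IgA cells. Of the S100a10 UMIs of IgA cells, 82.1% came from 1 cell. Chst1 was found in 2 of 13 IgA cells, compared with 21 of 34 IgM and 25 of 34 IgG cells, and Pld4, a lysosomal phospholipase family member, in 17 IgG and 0 IgA cells. Klf2, which was low in the 28 immunoglobulin-poor cells (8 cells with any), was found in 12 of 13 IgA, 20 of 34 IgM and 23 of 34 IgG cells, and 46.8% of its UMIs in IgA cells came from 1 cell.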
